A study of Mus musculus and Mus musculus
Rattus norvegicus with 30 samples.

Results

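The genes followed here are 9 that build the tight junction or carry ions and water across an epithelium: the claudins Cldn3, Cldn4, Cldn6 and Cldn7, the junction proteins Tjp1, Cgn and Ocln, the Na,K-ATPase subunit Atp1b1 and the aquaporin Aqp3. They were chosen by name, as genes of the junction and of blastocoel filling, and are 9 of the 19919 genes in both RNA-seq tables of mouse embryonic stem cells (mESCs). All 9 passed the filter on low counts in every comparison. The study placed Flag-tagged mouse Cdx2 (mCdx2) or rat Cdx2 (rCdx2) under a doxycycline-inducible Tet-On promoter in mESCs by lentivirus. RNA was sequenced in 20 mESC libraries, 2 for each of 10 conditions: WT, mCdx2-OE, rCdx2-OE and rCdx2 carrying each of 7 combinations of 3 amino acid changes of the DNA binding domain, named R1, R2, R3, R12, R13, R23 and R123 after the changes they hold. The study gives these changes as the ones by which the domain of mCdx2 differs from that of rCdx2. So mCdx2 itself holds all 3, and R123 has the same domain as mCdx2. RMES cells, stem cells with 1 mouse and 1 rat haploid genome, gave 4 RNA libraries, 2 labelled WT, 1 mCdx2-OE and 1 rCdx2-OE. Cells with mCdx2 and rCdx2 were induced for 48 h, and the time for the mutants is not given in the sources used here. ATAC-seq covered 1 WT and 1 mCdx2-OE mESC library, and ChIP-seq with an antibody to Flag covered 1 mCdx2-OE and 1 rCdx2-OE library in each cell type. The labels call the mESC controls WT, the study describes them as cells before doxycycline, and neither says that they carried the transgene. Nor is it given whether the libraries of a condition came from separate cultures, so p-values measure the spread between libraries, which may be technical.

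Tight junctions seal the space between epithelial cells. Claudins and occludin span the membrane there, and ZO-1 (the product of Tjp1) and cingulin (Cgn) form the plaque that ties them to actin. In the mouse blastocyst the trophectoderm, the outer layer that needs Cdx2, seals its junctions and pumps sodium with the Na,K-ATPase, and water follows through aquaporins to fill the blastocoel.

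All the mouse genes were placed on GRCm38, the assembly of mm10, with GENCODE. Cldn3 (chr5:134986214-134987472, plus strand) and Cldn4 (chr5:134945119-134946934, minus strand) are neighbours 39279 bp apart. Cldn6 lies at chr17:23679249-23682446 and Cldn7 at chr11:69964779-69967885, both on the plus strand. Tjp1 (chr7:65296165-65527781), Cgn (chr3:94760069-94786492), Ocln (chr13:100496507-100552718), Atp1b1 (chr1:164437109-164458355) and Aqp3 (chr4:41092722-41098183) are on the minus strand. The exons of Cldn3 and Atp1b1 overlap those of Wbscr25 and Nme7 only on the opposite strand, and the reads were counted by strand.

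In mESCs a Cdx2 ChIP peak lay within 20 kb of 6 of these genes, and of 77.8% of the protein-coding genes tested. Shown are 200 bases around the centre of the ChIP peak with the most reads for each gene whose peak lies outside untranslated exons, on the plus strand of GRCm38. Capitals mark a match to the Cdx2 motif CNATAAA, searched on both strands, so that a match reads CNATAAA or TTTATNG. The peak of Cldn4 lies in an intron of Mettl27, that of Tjp1 in its own intron, that of Atp1b1 in an intron of Nme7, and those of Cldn7 and Cgn between genes.
Cldn4, chr5:134938090-134938289: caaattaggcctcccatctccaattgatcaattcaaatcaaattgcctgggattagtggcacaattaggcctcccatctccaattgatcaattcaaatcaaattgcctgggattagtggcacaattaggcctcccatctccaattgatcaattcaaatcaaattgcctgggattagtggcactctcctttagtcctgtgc
Cldn7, chr11:69961612-69961811: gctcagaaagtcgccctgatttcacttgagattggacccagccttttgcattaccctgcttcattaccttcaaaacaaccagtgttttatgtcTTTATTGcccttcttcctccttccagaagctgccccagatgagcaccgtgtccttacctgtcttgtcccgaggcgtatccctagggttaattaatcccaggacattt
Tjp1, chr7:65345031-65345230: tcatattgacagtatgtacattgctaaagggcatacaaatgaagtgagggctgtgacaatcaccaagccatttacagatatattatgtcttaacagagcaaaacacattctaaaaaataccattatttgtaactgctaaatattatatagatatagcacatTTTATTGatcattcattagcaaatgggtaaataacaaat
Cgn, chr3:94787863-94788062: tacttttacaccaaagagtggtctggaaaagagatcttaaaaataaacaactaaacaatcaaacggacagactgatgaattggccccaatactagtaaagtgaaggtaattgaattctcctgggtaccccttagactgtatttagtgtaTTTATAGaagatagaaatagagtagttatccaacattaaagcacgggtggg
Atp1b1, chr1:164419834-164420033: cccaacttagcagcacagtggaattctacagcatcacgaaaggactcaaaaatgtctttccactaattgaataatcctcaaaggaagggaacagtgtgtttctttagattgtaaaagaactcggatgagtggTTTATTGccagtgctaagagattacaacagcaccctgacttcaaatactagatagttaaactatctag
The stretch near Cldn4 holds no match, and each of the other 4 holds 1.

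Values are read counts, given as CPM, which are corrected for library size with TMM normalisation, or as RPKM, which are also divided by exon length, where genes are compared with each other. The WT libraries of mESCs were sequenced several-fold deeper (74960057 and 94686029 counts) than the induced ones (12698443 to 24315929 counts), so low levels are less precise in induced cells. Cdx2 itself was at 1.36 and 1.21 CPM in WT and at 67.0 to 127.4 CPM in the 4 libraries of intact Cdx2, as mCdx2-OE and rCdx2-OE are called together. The 14 mutant libraries had 37.2 to 146.6 CPM of Cdx2. These levels sum the endogenous gene and the transgene.

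In WT mESCs the genes already spanned a wide range of RPKM. Aqp3 was highest with 39.8 to 40.0, above Cldn4 and Atp1b1, whose ranges of 33.8 to 34.6 and 33.3 to 34.3 overlapped. Tjp1 with a mean of 20.1, Cldn6 at 12.7 to 13.8, Cgn at 3.03 to 3.08, Cldn7 at 2.12 to 2.18 and Cldn3 at 1.361 to 1.5985 followed without overlap, and Ocln was lowest with 0.41 to 0.46. In mCdx2-OE cells the order had changed at the top, where Cldn4 had 91.6 to 108.4 RPKM and Aqp3 83.2 to 86.2, and Cldn3 had passed Cldn7 and Cgn with 10.1 to 10.2 RPKM. Ocln remained lowest with 0.80 to 0.91 RPKM.

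mCdx2-OE cells were first compared with WT cells, which asks what induction of the mouse protein does to these genes in mESCs. Cldn3, Cldn4, Tjp1 and Aqp3 rose by more than 2-fold, Cldn6, Cgn, Ocln and Atp1b1 were higher by less than 2-fold, and Cldn7 did not pass the test. To be called, a gene needed a change of more than 2-fold and a p under 0.05 from edgeR's quasi-likelihood test after Benjamini-Hochberg adjustment. Of the 16000 genes tested 33.4% were called, 18.4% as higher, beside 4 of the 9 genes here, all higher. The median log2 fold change of the 9 was 0.96, and that of all genes -0.03.

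Among the claudins, Cldn3 moved most. It was at 2.01 and 1.71 CPM in WT and at 12.9 and 12.7 CPM in mCdx2-OE libraries. The log2 fold change was 2.78 (SE 0.13, adjusted p = 1.96e-11, n = 2 libraries a group). Cldn4, a claudin of tight epithelia, went from 62.8 and 61.3 to 196.9 and 166.4 CPM, with no overlap. Its log2 fold change was 1.55 (SE 0.12, adjusted p = 8.16e-09). Cldn6, which is known from early embryonic epithelia, had 20.8 and 19.2 CPM in WT and 36.1 and 33.8 CPM in mCdx2-OE cells. The difference passed the test, but the log2 fold change of 0.81 (SE 0.16, adjusted p = 2.15e-04) was under 2-fold. Cldn7 had 4.24 and 4.13 CPM in WT and 4.68 and 4.36 CPM in mCdx2-OE cells, a log2 difference of 0.12 (SE 0.23, adjusted p = 0.667).

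The plaque genes Tjp1 and Cgn and the membrane gene Ocln moved by less than Cldn3 and Cldn4. Tjp1 was at 156.2 and 157.9 CPM in WT and at 291.3 and 339.7 CPM in mCdx2-OE cells, just past 2-fold with a log2 fold change of 1.01 (SE 0.09, adjusted p = 4.72e-08). With replicate 2 of mCdx2-OE left out the value was 0.89, and with replicate 1 of WT left out 0.99, both under 2-fold. Cgn was higher by just under 2-fold. It had 18.2 and 18.5 CPM in WT and 35.7 and 35.5 CPM in mCdx2-OE cells, with a log2 fold change of 0.95 (SE 0.09, adjusted p = 1.61e-07). Ocln, the lowest of the 9 per exon length, had 1.74 and 1.93 CPM in WT and 3.39 and 3.84 CPM in mCdx2-OE cells. Its log2 fold change of 0.96 (SE 0.21, adjusted p = 6.43e-04) rested on 59 and 81 read pairs in the induced libraries, and passed 2-fold without replicate 1 of mCdx2-OE (1.05) or replicate 2 of WT (1.04).

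Both transport genes were higher. Aqp3, a channel for water and glycerol, had 73.1 and 72.8 CPM in WT and 152.1 and 157.7 CPM in mCdx2-OE cells. This is a log2 fold change of 1.09 (SE 0.11, adjusted p = 2.64e-07). Atp1b1, the beta subunit that brings the sodium pump to the membrane, went from 105.6 and 102.5 to 147.7 and 152.9 CPM. Its log2 fold change was 0.53 (SE 0.06, adjusted p = 1.13e-06), small beside the others but without overlap between the libraries.

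rCdx2-OE cells were compared with the same WT libraries, so their folds are not independent of those above. Here 6 of the 9 genes were called, all higher, beside 34.5% of all genes and 19.0% called higher. Cldn3 had 13.4 and 15.3 CPM, Cldn4 201.0 and 175.3 CPM, Tjp1 298.7 and 337.9 CPM, and Aqp3 148.3 and 155.2 CPM. Cldn6 (47.7 and 42.8 CPM, log2 fold change 1.18) and Cgn (41.6 and 37.7 CPM, log2 fold change 1.11) passed 2-fold in rCdx2-OE and not in mCdx2-OE cells. Tjp1 was again just past 2-fold, and at 0.92 when replicate 2 of rCdx2-OE was left out. Ocln (0.77), Atp1b1 (0.42) and Cldn7 (0.34) stayed under 2-fold, and Cldn7 missed the test with an adjusted p of 0.188.

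The question whether the mouse and rat proteins differ was tested directly. None of the 9 genes differed between mCdx2-OE and rCdx2-OE cells at an adjusted p under 0.05 in edgeR's quasi-likelihood test, beside 3 of all 16000 genes (0.0188%). At an unadjusted p under 0.05 there were 857 genes, of which 1, Cldn6, is of the 9. DESeq2 called 21 genes and none of the 9. With a replicate block within WT, intact Cdx2 and mutants, added after the data were seen, 213 genes and 1 of the 9 passed, Cldn6, at a log2 difference of -0.38 (SE 0.07, adjusted p = 1.66e-03). The widest log2 differences were -0.37 for Cldn6 (95% interval -0.68 to -0.07) and 0.19 for Ocln (-0.25 to 0.63). For Cldn4 the interval ran from -0.28 to 0.18 and for Atp1b1 from -0.01 to 0.23.

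**Figure D1:**
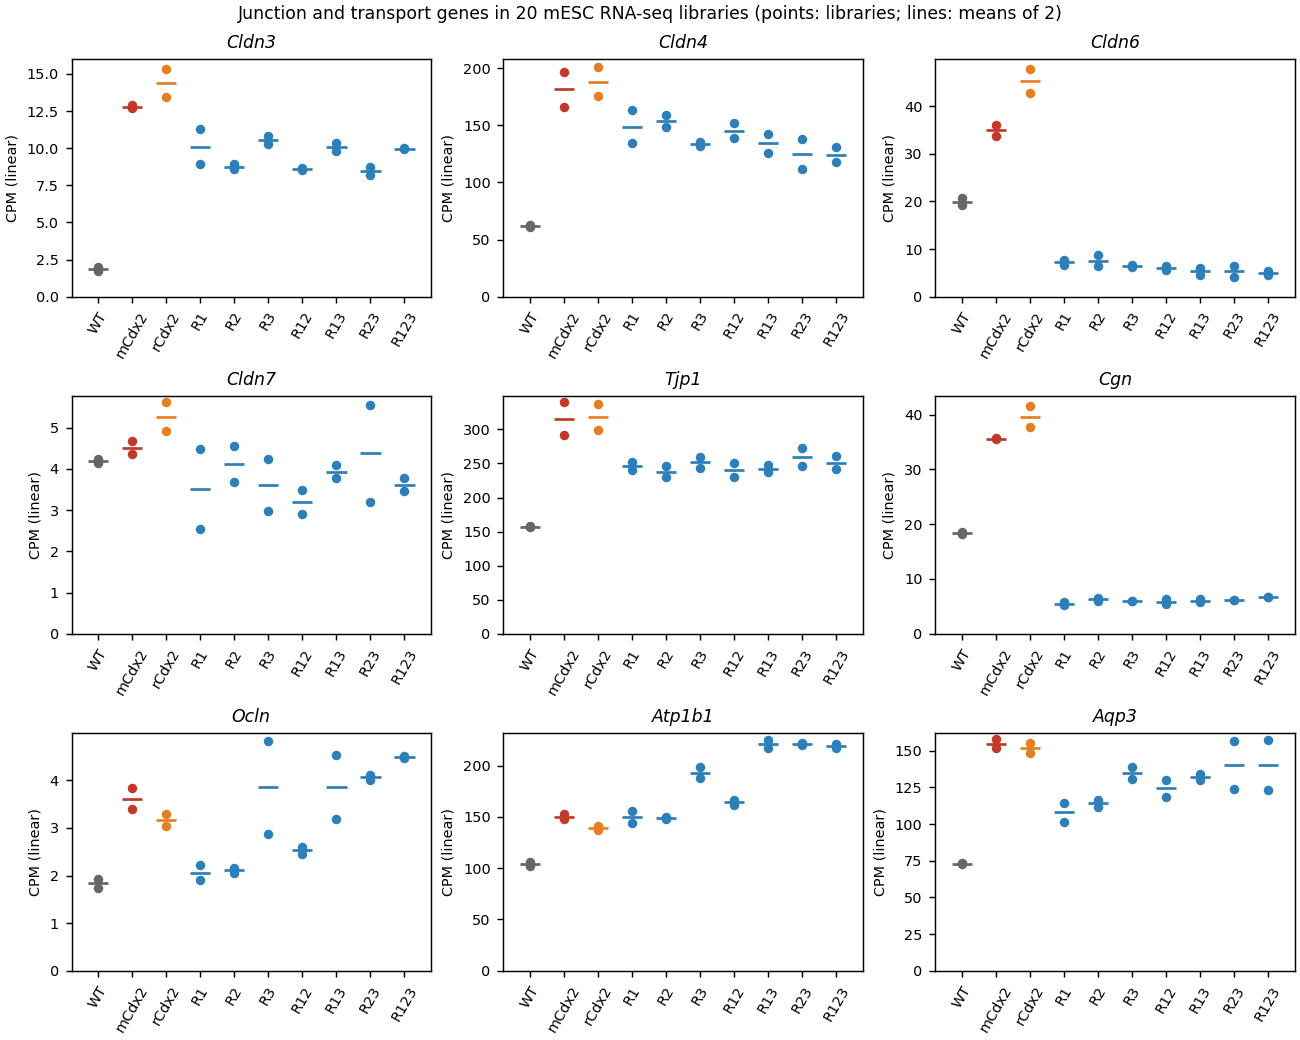
CPM of the 9 genes (linear axes from 0) in the 20 mESC libraries, 2 per condition, with points for libraries and lines for the mean of 2. Cldn6 and Cgn sit above WT with both intact proteins and below WT in all 14 mutant libraries, while Cldn3, Cldn4, Tjp1, Atp1b1 and Aqp3 are above WT in every induced library.

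The 7 mutants were compared with WT in the same model. Cldn3 and Cldn4 rose in each of the 7, and Cldn6 and Cgn fell in each of the 7, in the direction opposite to that with intact Cdx2. The number of the 9 genes called was 4 in R1, R2 and R12, 5 in R3, and 6 in R13, R23 and R123, of which 2, Cldn6 and Cgn, were lower each time. The share of all genes called was 23.2% in R1 (13.1% lower), 23.4% in R2 (12.8% lower), 23.7% in R12 (13.1% lower), 25.6% in R3 (13.4% lower), 27.8% in R13 (14.2% lower), 28.7% in R23 (14.9% lower) and 28.9% in R123 (14.9% lower).

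Cldn6 had 4.09 to 8.71 CPM over the 14 mutant libraries, with a median of 6.32 CPM. The WT libraries had 20.8 and 19.2 CPM and the 4 libraries of intact Cdx2 33.8 to 47.7 CPM, so the 3 sets of libraries did not overlap. The share of all genes with this order was not counted, but 17.2% had every mutant library below every library of intact Cdx2. Against WT the log2 fold changes ran from -2.00 in R123 (SE 0.19, adjusted p = 1.23e-07) to -1.39 in R2. Cgn had 5.21 to 6.74 CPM in the mutants with a median of 6.13, beside 18.2 and 18.5 CPM in WT and 35.5 to 41.6 CPM with intact Cdx2. Its log2 fold changes against WT ran from -1.73 in R1 to -1.46 in R123 (SE 0.11, adjusted p = 8.59e-09). Cldn6 encodes a membrane protein of the junction and Cgn one of its plaque, and no other gene of the 9 was called lower than WT with any construct in mESCs.

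The other claudins of the 9 did not fall. Cldn3 had 8.17 to 11.3 CPM in the mutant libraries (median 9.37), above WT and below all 4 libraries of intact Cdx2, with log2 fold changes against WT of 2.19 to 2.50. Cldn4 had 112.2 to 163.2 CPM (median 136.5), also between WT and intact Cdx2, with log2 fold changes of 1.004 to 1.31. In R23 and R123 it was just past the threshold, at log2 fold changes of 0.86 and 0.93 without replicate 2 of the mutant and 0.99 in both without replicate 2 of WT. Cldn7 had 2.53 to 5.56 CPM, overlapped WT and was called in no mutant.

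Tjp1 (229.6 to 273.4 CPM) and Aqp3 (101.5 to 157.4 CPM) were above WT in every mutant library but under 2-fold, with log2 fold changes of 0.60 to 0.73 and 0.57 to 0.95. Aqp3 passed 2-fold in R23 and R123 without replicate 1 of the mutant (both 1.11). Atp1b1 and Ocln differed among the mutants, which the other 7 genes did not at an adjusted p under 0.05 in the joint test of edgeR's quasi-likelihood model (22.5% of all genes did). With the replicate block within class 5 of the 9 did, and 44.7% of all genes, Cldn4 (adjusted p = 3.21e-05), Cldn6 (4.25e-03) and Aqp3 (7.61e-06) being added. This comparison among mutants was itself added after the data were seen. Atp1b1 had 144 to 167 CPM in the 6 libraries of R1, R2 and R12, and 188 to 225 CPM in the 8 libraries of R3, R13, R23 and R123. The adjusted p of the joint test was 3.07e-06. Ocln had 1.90 to 2.603 CPM in R1, R2 and R12 and 2.88 to 4.83 CPM in the mutants that hold change 3, and the adjusted p was 4.94e-03. Its calls against WT in R3 and R13 were under 2-fold without replicate 1 of the mutant (log2 0.65 and 0.80) or of WT (0.99 and 0.97). How many of all genes split in this way between mutants with and without change 3 was not counted. In a fit of the mutants alone change 3 had an effect on 51.8% of all genes.

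**Figure D2:**
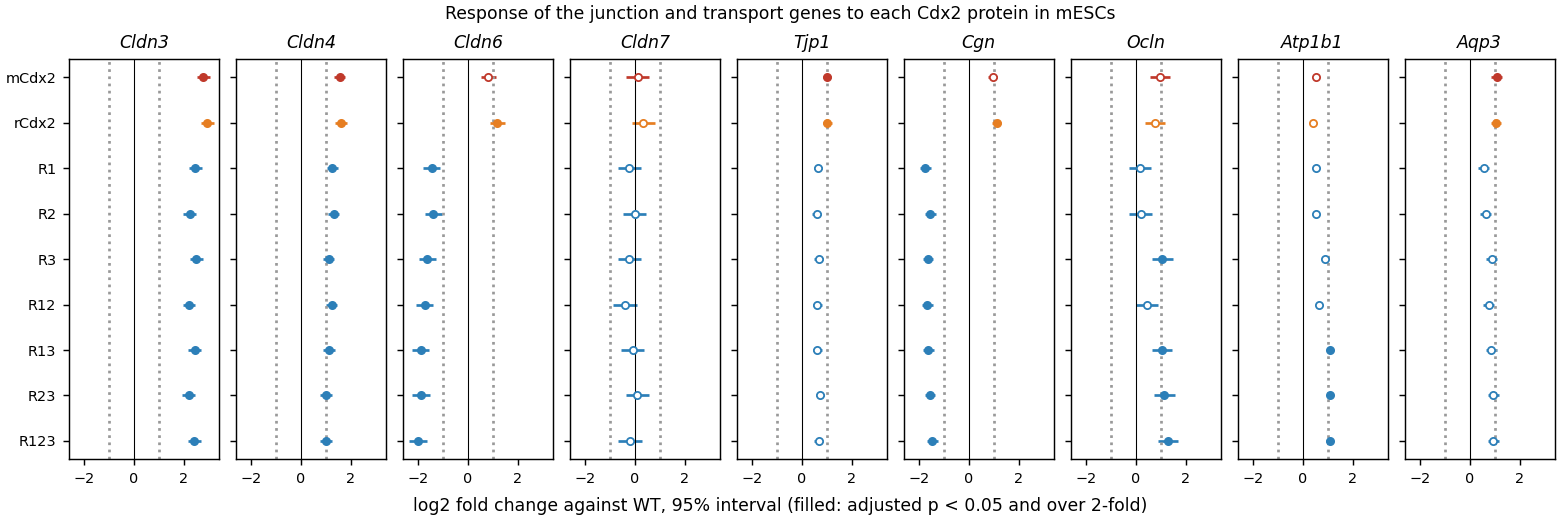
Log2 fold change against WT (x axes, with 95% intervals from the standard error) of each gene in the 9 induced conditions of mESCs, with filled points for adjusted p under 0.05 and a fold over 2 and dotted lines at 2-fold. Cldn6 and Cgn lie right of 0 for mCdx2 and rCdx2 and left of -1 for all 7 mutants, and Atp1b1 is filled only in R13, R23 and R123.

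The 3 changes occur in every combination across rCdx2 and the mutants, and each alone was first set against rCdx2. Whether rCdx2 and the mutants were handled as a single set is not given. A difference between such sets cannot be told apart from an effect of the changes here. R1 differed from rCdx2 in 6 of the 9 genes (44.0% of all genes did), R2 in 5 (41.8%) and R3 in 6 (43.8%). Cgn was lower with each single change, by 2.85 on the log2 scale in R1 (SE 0.11, adjusted p = 3.08e-11), by 2.65 in R2 and by 2.74 in R3. Cldn6 was lower by 2.64, 2.57 and 2.81 in the same order. Cldn3 and Tjp1 were lower with each of the 3, Aqp3 in R1 and R2, and Cldn4 in R1 and R3, while Atp1b1 was higher in R3. With the replicate block within class the counts were 8, 7 and 8 of the 9. R123, whose DNA binding domain is that of mCdx2, differed from mCdx2 in 6 of the 9 genes, 5 lower and 1 higher. Of all 16000 genes 6785 did. The log2 differences of the 9 ran from -2.81 to 0.54, in a comparison added after the data were seen.

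An additive model gives each change a single effect that holds in every construct. Cldn6 and Cgn were about as low with a single change as with several, so this form does not describe them, and a missing effect in it does not show that a change did nothing alone. In the additive model of these 16 libraries none of the 9 genes, and 0 of 15114 genes, showed an effect of change 1 or of change 2 at an adjusted p under 0.05. At an unadjusted p under 0.05 there were 1995 genes for change 1 and 1569 for change 2, with 3 of the 9 genes each, and DESeq2 called 22 genes and 1 gene. Change 3 had an effect on 4 of the 9 genes beside 36.6% of all genes. Atp1b1 was higher by 0.50 on the log2 scale (SE 0.04, adjusted p = 1.71e-07) and Ocln by 0.71 (SE 0.15, adjusted p = 1.45e-03). Cldn4 was lower, with a log2 effect of -0.30 (SE 0.07, adjusted p = 2.26e-03), and so was Cldn6, with -1.17 (SE 0.34, adjusted p = 0.0141). For Cldn6 the estimates for change 1 (-1.01) and change 2 (-0.97) were near that for change 3. Without rCdx2, in the 7 mutants alone, change 3 had an effect on 5 of the 9 genes beside 51.8% of all genes, a fit added after the data were seen. The effect on Cldn6 was then -0.41 (SE 0.11, adjusted p = 6.21e-03), and those on the others were 0.50 for Atp1b1, 0.90 for Ocln, 0.27 for Aqp3 and -0.23 for Cldn4. None of the 9 showed an effect of change 1 or 2 in that fit, in which 4 and 0 of all genes did (1106 and 1423 at an unadjusted p under 0.05). With the replicate block added to it, 66 and 228 of all genes did and again none of the 9. Cdx2 itself was lower with change 3, with a log2 effect of -0.74 with rCdx2 in the fit (SE 0.26, adjusted p = 0.0367) and -0.94 in the mutants alone, and its part in these effects was not tested.

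All 7 mutants together were set against intact Cdx2, again a comparison added after the data were seen. Deviations of same-numbered samples were shared within intact Cdx2 (r = 0.57) and within the mutants (0.195 to 0.337). Between classes they were not (-0.162 to -0.0174). A difference between sets of samples handled separately thus cannot be told apart from a difference between the proteins. The pairs between classes include those with WT. In comparisons with WT such a difference likewise cannot be told apart from an effect of Cdx2-OE. Cldn6 was 6.53-fold lower in the mutants (log2 -2.71, SE 0.09, adjusted p = 2.28e-13) and Cgn 6.19-fold lower (log2 -2.63, SE 0.05, adjusted p = 1.53e-15). Cldn3 (-0.51), Cldn4 (-0.43), Cldn7 (-0.37), Tjp1 (-0.36) and Aqp3 (-0.27) were lower by less, and Atp1b1 was higher by 0.36. Ocln, at -0.10, did not pass the test (adjusted p = 0.512). These are 8 of the 9 genes at an adjusted p under 0.05 in edgeR's quasi-likelihood test, beside 64.0% of all genes, 33.4% lower in the mutants. Every mutant library was below every library of intact Cdx2 for Cldn3, Cldn4, Cldn6, Tjp1 and Cgn, a pattern that 17.2% of all genes had. Cldn7 lost its call without replicate 1 (-0.34) or 2 (-0.39) of mCdx2-OE or replicate 1 of rCdx2-OE (-0.31).

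Cell type markers moved along the same division. The summed CPM of 12 trophoblast markers was 185.5 to 188.1 in WT, 715.7 to 975.0 with intact Cdx2 and 189.2 to 363.4 in the mutants, and 9 of the 11 tested were lower in the mutants than with intact Cdx2. Over all genes 64.0% differed in that comparison and 33.4% were lower, and the marker counts below are to be read against these shares. The 10 pluripotency markers summed to 4377 to 4421 CPM in WT, 3192 to 3553 with intact Cdx2 and 3905 to 5039 in the mutants. Of these 8 were higher and none lower in the mutants than with intact Cdx2. The 8 primitive endoderm markers summed to 44.8 to 47.5 CPM, 90.6 to 93.9 CPM and 101.7 to 122.6 CPM in the same order, but the sums rest on the abundant members, since 5 of the 8 were lower in the mutants than with intact Cdx2 and 1 higher (median log2 difference -0.54). The 10 feeder fibroblast markers summed to 40.1 to 40.8 CPM, 17.1 to 20.4 CPM and 3.13 to 8.65 CPM, with Dcn and Lum at 0 with intact Cdx2 and Lum at 0 in the mutants. The 7 intestinal markers in the tables summed to 116.7 to 118.9 CPM, 55.4 to 67.3 CPM and 44.6 to 49.6 CPM. Here too most members did not follow the sum, for of 6 tested 2 rose and 1 fell in mCdx2-OE and 3 rose and 2 fell in rCdx2-OE cells (median log2 fold changes 0.69 and 0.57), and 3 were lower in the mutants than with intact Cdx2. Against WT 33.4% of all genes were called in mCdx2-OE (18.4% higher) and 34.5% in rCdx2-OE cells (19.0% higher). Apart from Dcn and Lum no marker of these 5 lists was without reads in a class. The part of these markers in the levels of the 9 genes was not tested, and in bulk samples fewer cells of a type and less RNA per cell cannot be told apart.

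Other genes of the junction and of transport were followed as lists. Of 27 further tight junction membrane and plaque genes, 6 rose and 3 fell in mCdx2-OE and 8 rose and 3 fell in rCdx2-OE cells. Over all genes 18.4% and 19.0% were called higher, and the lists below are to be read against the same shares. The scaffold genes Magi3 (log2 fold changes 2.40 and 2.41) and Patj (1.95 and 2.18) rose with both proteins, and the polarity gene Crb3 (-1.63 and -1.35) and Cgnl1, a relative of Cgn (-1.13 and -1.06), fell. Patj followed the division of Cgn in part, being lower in the mutants than with intact Cdx2 by 1.501 on the log2 scale. Of the 27 genes 15 were lower and 5 higher in the mutants than with intact Cdx2, where 64.0% of all genes differed and 33.4% were lower. Of 16 other claudins only 4 passed the filter on low counts in mESCs, of which 2 fell in mCdx2-OE and none rose. The sum over the 9 other claudins in the tables went the other way. It was 25.7 CPM in WT, 42.3 to 47.9 CPM with intact Cdx2 and 30.6 to 37.2 CPM in the mutants.

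Of 9 tested genes for other Na,K-ATPase subunits and FXYD regulators, 4 rose with each intact protein, among them Atp1b2 (log2 fold changes 1.30 and 1.28). Of 8 ion and solute transporters 4 rose with each, among them the glucose transporter gene Slc2a1 (1.09 and 1.36), which was lower in the mutants than with intact Cdx2 by 1.33. Of 3 other aquaporins tested 2 rose. Desmosome genes rose in 5 of 8 cases with each protein, led by Dsc2 (5.07 and 5.64) and Dsp (3.58 and 3.78), and both were lower in the mutants by 2.25 and 1.70. Of 9 adherens junction genes none rose, and 2 fell in mCdx2-OE and 1 in rCdx2-OE cells, Nectin1 (-1.36 and -1.31) in both. Among 12 epithelial transcription factors 4 rose and 2 fell with each, with Grhl3 (1.72 and 1.82) and Gata3 (3.13 and 3.39) higher and Grhl2 (-2.33 and -2.54) and Ovol2 (-2.33 and -1.77) lower.

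The genes whose log CPM was most like that of each member over the 20 mESC libraries are a description, since the libraries share conditions. For Cldn3 it was Slc22a23 (Pearson's r = 0.983), for Cldn4 Gjb5 (0.979), for Cldn6 Piezo1 (0.985) and for Cgn Scube3 (0.989). For Tjp1 it was Vamp3 (0.985), for Atp1b1 Klf10 (0.982), for Aqp3 Hspb8 (0.969), for Ocln Katnal1 (0.926) and for Cldn7 Trnp1 (0.793). Between members, Cldn6 and Cgn were most alike (0.970), followed by Cldn3 and Cldn4 (0.929), and Cldn6 and Atp1b1 were least alike (-0.669).

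Chromatin accessibility was examined in the gene extended by 20 kb on either side, where 119 ATAC peaks lay and 77 held at least 40 normalised reads. With 1 library a group there is no test, and the intervals below are exact binomial 95% intervals for counting error only. Of the 77 peaks 11 were more than 2-fold more open in mCdx2-OE than in WT cells and 12 more than 2-fold less open, beside 13.7% and 20.5% of all 85394 such peaks. At the RefSeq start sites used for the 9 genes the peaks stayed within 2-fold. The widest ratios there were those of Cgn (273.7 against 146.0 scaled reads, 1.87-fold, 1.52 to 2.33) and Tjp1 (217.3 against 118.9, 1.82-fold, 1.44 to 2.33). The start sites of Cldn3 (1.03-fold, 0.89 to 1.20) and Cldn4 (0.87-fold, 0.74 to 1.02), whose RNA rose most, had intervals that span 1.

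The opened peaks lay away from the start sites used. The GENCODE start of Tjp1, which was not among these sites, lay under an opened peak (110.4 against 50.6 scaled reads, 2.16-fold, 1.53 to 3.16). The widest ratio was 14170 bp upstream of Cgn, where scaled reads went from 4.71 to 46.1, an 8.24-fold ratio (3.602 to 37.2) at chr3:94800397-94800908. Upstream of Cldn4, in the stretch between Cldn4 and Cldn3, peaks at 2933, 10770 and 12442 bp opened by 3.28-fold, 3.52-fold and 3.397-fold, while peaks 12625 and 15513 bp upstream of Cldn3 closed by 2.69-fold and 4.87-fold. Downstream of Cldn6, which was higher in these cells by less than 2-fold, peaks 15253 and 17366 bp from its start opened by 5.72-fold and 3.08-fold, and 2 others closed. Cldn7, whose RNA did not pass the test, had 1 opened peak 2996 bp upstream (20.02 to 55.6 scaled reads, 2.69-fold, 1.61 to 5.06). Atp1b1 had 1 opened and 3 closed peaks, Tjp1 3 and 2, Aqp3 1 closed, and Ocln neither. An opened peak lay near 6 of the 9 genes, as it did near 43.0% of the protein-coding genes tested, and a closed peak near 6, as near 55.9%.

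**Figure D3:**
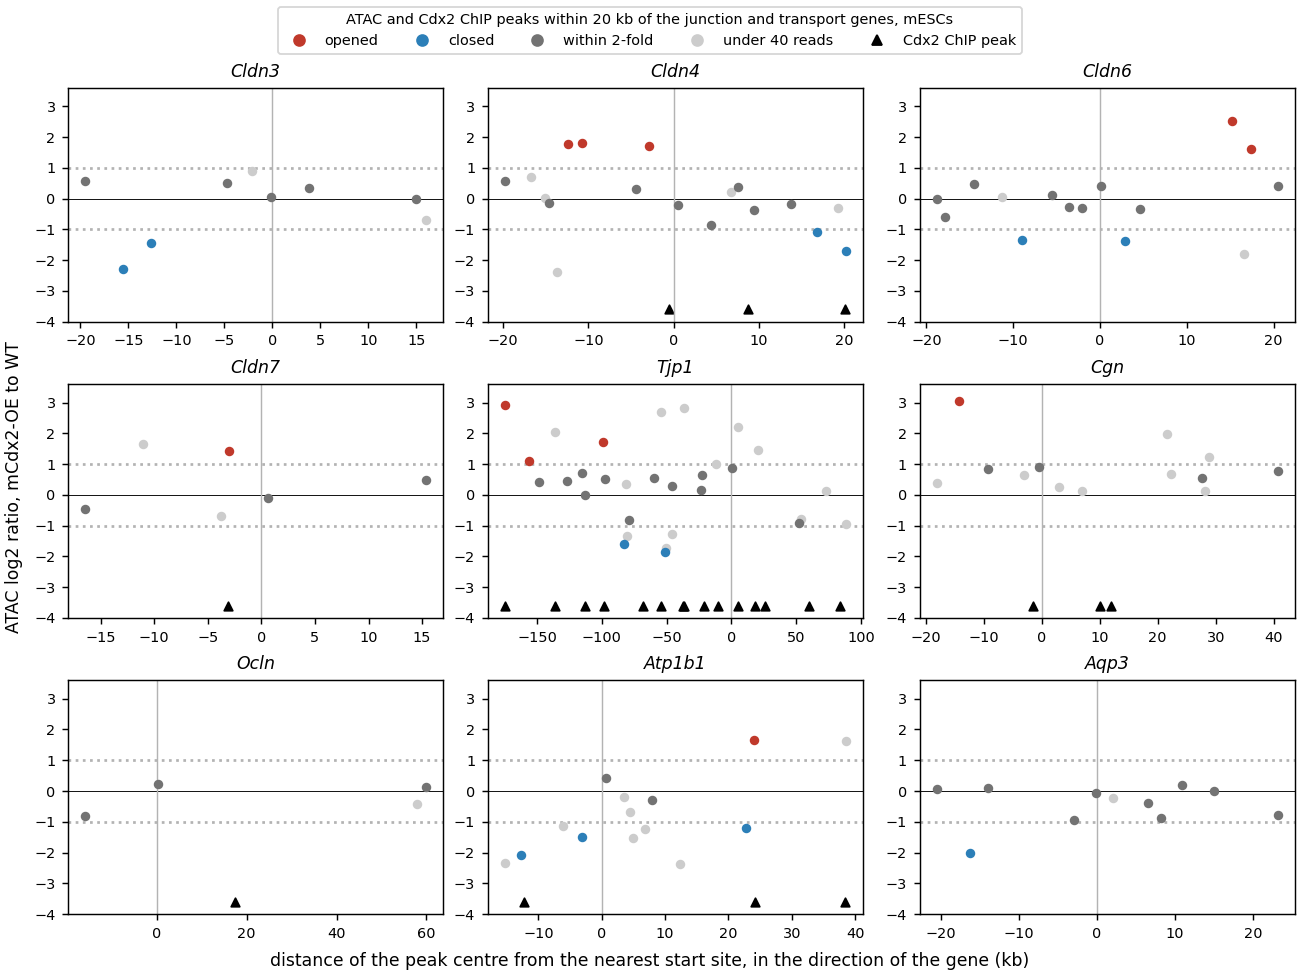
Log2 ratio of scaled ATAC reads, mCdx2-OE to WT (y axes), against the distance of each peak from the nearest start site in kb in the direction of the gene (x axes), 1 library each, with mESC Cdx2 ChIP peaks as triangles. Peaks at the RefSeq start sites used lie between the dotted 2-fold lines for all 9 genes, and Cldn3, Cldn6 and Aqp3 have no triangle.

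Cdx2 ChIP peaks in mESCs numbered 26 in these windows, 15 of them in the long window of Tjp1, 3 each near Cldn4, Cgn and Atp1b1, and 1 each near Cldn7 and Ocln. None lay within 20 kb of Cldn3, Cldn6 or Aqp3. A peak in the window was found for 6 of the 9 genes and for 77.8% of the protein-coding genes tested. The motif CNATAAA was present in the central 200 bases of 18 of the 26 peaks, including 4 of the 5 stretches printed above, and in 45.4% of all mESC ChIP peaks and 9.98% of all ATAC peaks. None of the 11 RefSeq promoters of the 9 genes (300 bases, 250 before to 50 after the start, GRCm38.p6) held it, and 10.9% of all 32851 promoters did.

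The highest peak of Cldn7, printed above, had 64 reads with mCdx2 and 64 with rCdx2 and lay under the peak that opened. Of the 11 opened ATAC peaks 3 overlapped a ChIP peak, those of Cldn7, Tjp1 (174642 bp upstream of the start site used) and Atp1b1 (in an intron of Nme7), while 58.3% of all opened peaks did. Of the 12 closed peaks 2 overlapped one, beside 2.97% of all closed peaks. Peaks under the read minimum are in neither count. Among them, those that overlapped a ChIP peak were all more open. The ratios were 4.63, 7.12, 6.51 and 4.11 near Tjp1 and 3.07 near Atp1b1, with wide intervals above 1. Of those without a ChIP peak some opened past 2-fold, near Cldn7 (3.14), Tjp1 (2.74) and Cgn (2.36 and 3.98), and others closed. The 3 of 11 thus leaves out bound peaks with few reads. The 8.24-fold opened peak near Cgn had no ChIP peak, and the Cgn peak printed above, 1480 bp upstream of the start with 76 and 48 reads, adjoined the start-site peak.

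The mouse and rat proteins were compared peak by peak, with columns matched to mCdx2 and rCdx2 from their short names. In mESCs no peak near the 9 genes differed by more than 2-fold (0.794% of all peaks with 40 reads did), with log2 ratios of -0.74 to 0.66. In RMES cells the mouse genome held 21 peaks near the same genes, 12 of them near Tjp1, and 18 of these 21 overlapped a mESC peak (80.1% of all did), as 18 of the 26 mESC peaks overlapped one of RMES cells (64.8%). Again Cldn3, Cldn6 and Aqp3 had none, and 67.5% of genes had one. A peak in an intron of Cgn was past 2-fold, with 39 reads for mCdx2 and 11 for rCdx2 (2.63-fold, 1.38 to 5.97), where 1.84% of all peaks were. The overlapping peak in mESCs had 52 and 39 reads (1.18-fold, 0.77 to 1.85).

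In RMES cells, reads were assigned to the mouse or the rat genome, so each gene has a level for each allele. The libraries labelled WT carried Cdx2 reads, 129.1 and 126.6 CPM on the mouse and 452.8 and 439.6 CPM on the rat allele. The mCdx2-OE library had 967.5 CPM of Cdx2 on the mouse and 47.2 on the rat allele, and the rCdx2-OE library 4.45 and 879.8 CPM. With these libraries pooled, Cdx2 did not pass edgeR's quasi-likelihood test against WT on either allele (adjusted p = 0.136 and 0.942). As they were high on different alleles, this test cannot show whether Cdx2 was induced. The mCdx2-OE and rCdx2-OE libraries were taken as replicates of a single condition, Cdx2-OE, which follows the study's methods. Each library held 36166038 to 41418817 counts for the mouse allele and 29453412 to 35249756 for the rat allele.

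On the mouse allele all 4 claudins, Cgn and Ocln rose and Atp1b1 fell. These are 7 of the 9 genes, 6 higher and 1 lower, beside 44.5% of all 16887 genes, 28.3% higher and 16.1% lower. Cldn7, which did not pass the test in mESCs, was at 0.68 and 0.53 CPM in the libraries labelled WT and at 11.9 (mCdx2-OE) and 9.88 CPM (rCdx2-OE). That is an 18.003-fold difference (log2 4.17, SE 0.21, adjusted p = 1.84e-09) resting on 22 and 19 read pairs in WT. Cgn went from 3.58 and 4.29 to 51.6 and 72.9 CPM, 15.8-fold (log2 3.98, SE 0.17, adjusted p = 2.98e-10). Cldn3 (5.70 and 5.47 to 25.0 and 25.6 CPM), Cldn4 (48.01 and 44.8 to 176.5 and 194.7 CPM) and Cldn6 (9.56 and 11.3 to 58.1 and 59.4 CPM) had log2 fold changes of 2.18, 2.00 and 2.49. Tjp1, at 203.9 and 198.6 against 302.0 and 353.9 CPM, was higher by less than 2-fold (log2 0.70).

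On the rat allele the same claudins and Cgn rose and both transport genes fell. Called were 7 of the 9 genes, 5 higher and 2 lower, beside 42.5% of all 14627 genes, 28.3% higher and 14.2% lower. Cgn went from 8.01 and 8.31 to 101.7 and 123.9 CPM, 13.8-fold (log2 3.79, SE 0.10, adjusted p = 9.15e-14). Cldn4 went from 12.8 and 11.3 to 79.3 and 81.9 CPM (log2 2.74), Cldn3 from 2.93 and 3.37 to 16.7 and 21.0 CPM (log2 2.58), and Cldn7 from 4.50 and 4.37 to 16.4 and 16.3 CPM (log2 1.88). Cldn6 had 8.85 and 10.4 CPM in the libraries labelled WT and 34.0 and 34.9 CPM with Cdx2-OE (log2 1.83). Tjp1 was higher by less than 2-fold (log2 0.40).

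**Figure D4:**
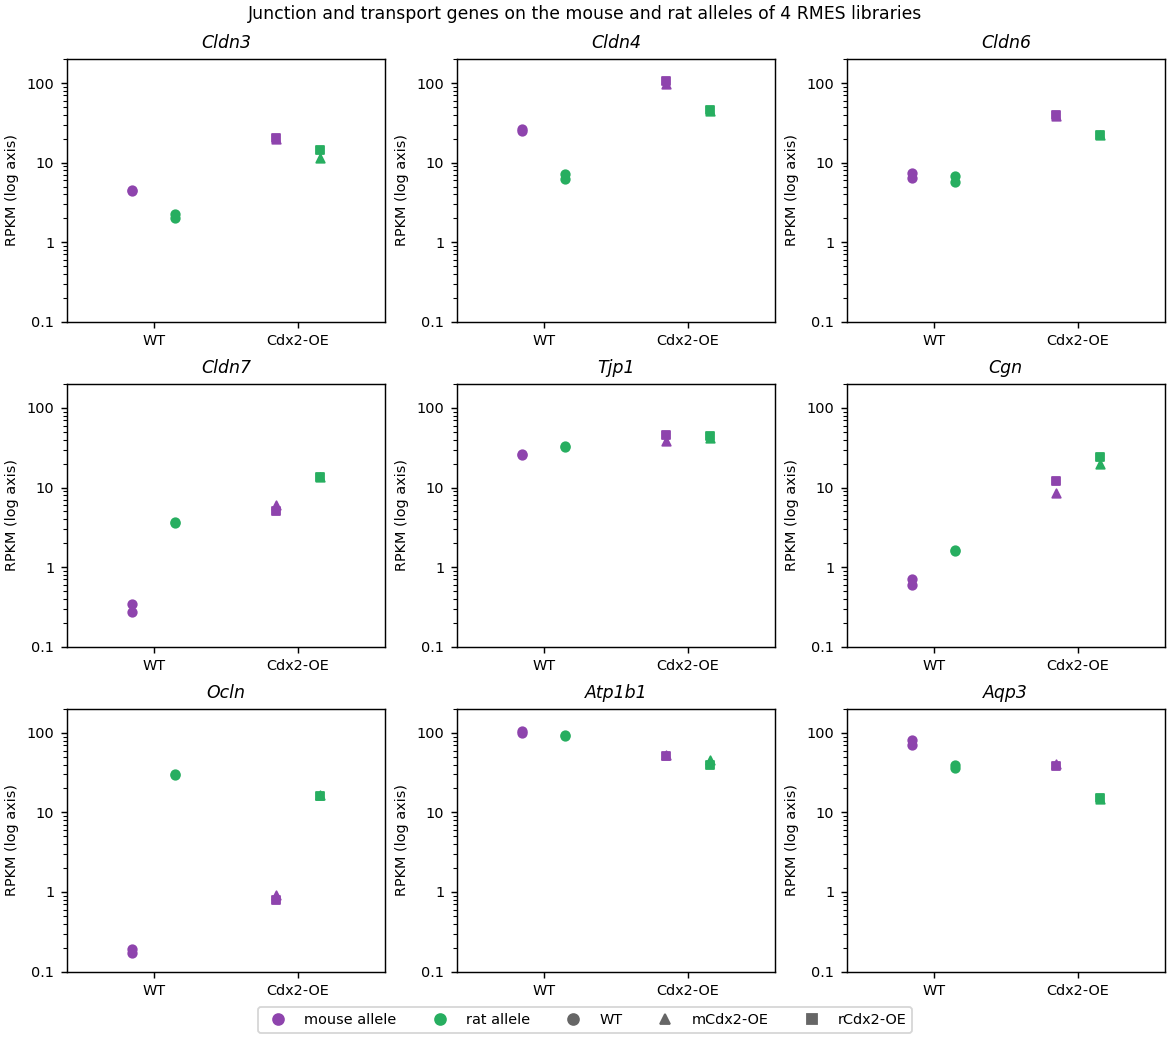
RPKM (log axes) of the 9 genes on the mouse and rat alleles in 4 RMES libraries, with circles for the 2 labelled WT, triangles for mCdx2-OE and squares for rCdx2-OE. Ocln is near 0.2 RPKM on the mouse and near 30 on the rat allele in the libraries labelled WT, with the levels closer together with Cdx2-OE. Cgn is higher and Aqp3 and Atp1b1 are lower with Cdx2-OE on both alleles.

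The transport genes were lower with Cdx2-OE in RMES cells on both alleles. Aqp3 had 150.0 and 129.3 CPM in the libraries labelled WT and 73.6 and 70.0 CPM with Cdx2-OE on the mouse allele, a log2 difference of -0.96 (SE 0.07, adjusted p = 4.34e-08) just under 2-fold. On the rat allele it fell from 69.9 and 65.4 to 26.5 and 27.2 CPM (log2 -1.33, SE 0.07, adjusted p = 1.51e-10). Atp1b1 fell from 326.4 and 310.8 to 160.6 and 156.2 CPM on the mouse allele (log2 -1.01, SE 0.06, adjusted p = 6.32e-09) and from 249.9 and 240.0 to 123.3 and 104.2 CPM on the rat allele (log2 -1.11, SE 0.07, adjusted p = 1.63e-09). The calls on Atp1b1 stood close to the threshold, at -0.98 on the mouse allele without replicate 1 of WT or without rCdx2-OE, and at -0.99 on the rat allele without rCdx2-OE. Aqp3 on the mouse allele passed 2-fold without replicate 2 of WT (-1.07) or without mCdx2-OE (-1.01). In mESCs both genes were higher with either intact protein, and this difference between the cell types was not tested. Levels of RMES and mESC tables were normalised separately.

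Ocln went in opposite directions on the alleles. On the mouse allele it rose from 0.80 and 0.72 to 3.91 and 3.37 CPM, with 26 read pairs in each library labelled WT (log2 2.25, SE 0.24, adjusted p = 2.20e-06). On the rat allele it was much more abundant, at 130.1 and 126.9 CPM, and lower with Cdx2-OE, at 70.9 and 68.3 CPM (log2 -0.88, SE 0.06, adjusted p = 1.51e-09, under 2-fold). In RPKM these levels were 0.19 and 0.17 on the mouse allele against 30.2 and 29.5 on the rat allele in the libraries labelled WT. With Cdx2-OE they were 0.93 and 0.80 against 16.5 and 15.9. Whether reads of 1 allele were assigned to the other was not tested.

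Whether the alleles responded differently was tested over 13578 genes paired by symbol, with each library as its own block. It is given as the mouse minus the rat log2 response. Of the 9 genes 6 differed at an adjusted p under 0.05, beside 63.0% of all genes. The values were 3.14 for Ocln (SE 0.18, adjusted p = 2.32e-17), 2.29 for Cldn7 (SE 0.26, adjusted p = 1.43e-09), 0.67 for Cldn6, 0.38 for Aqp3 and 0.31 for Tjp1. For Cldn4 it was -0.74 (SE 0.07, adjusted p = 4.31e-12), a stronger response of the rat allele. Cgn, with the strongest rise on the rat allele, differed by 0.19 (95% interval -0.07 to 0.44), Atp1b1 by 0.11 (0.00 to 0.22) and Cldn3 by -0.39 (-0.74 to -0.03), and none of these 3 passed the adjusted threshold. Without the mCdx2-OE library all 3 did, at 0.29, 0.21 and -0.53, and without replicate 2 of WT Cldn3 did (-0.53).

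**Figure D5:**
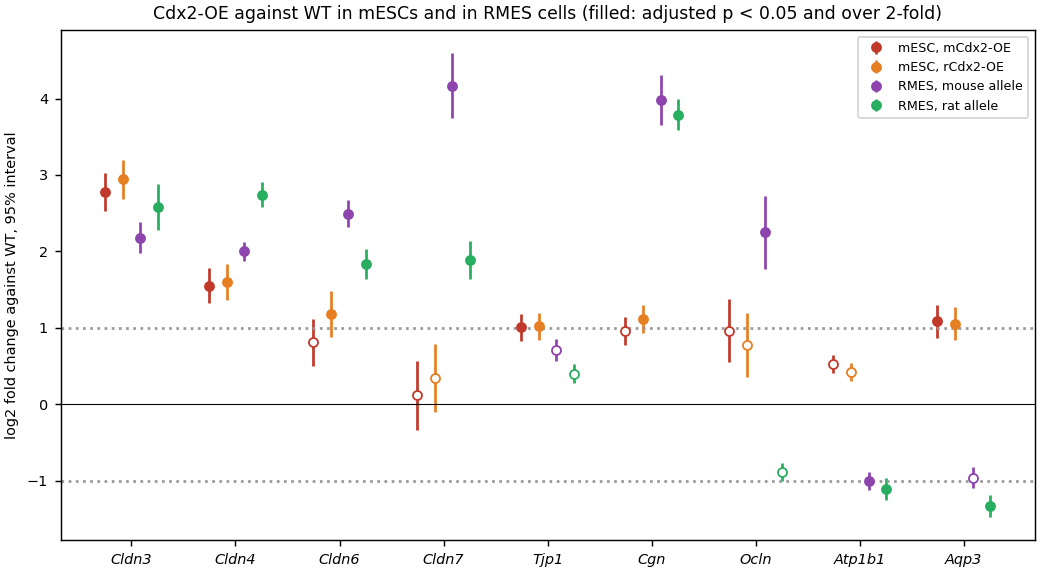
Log2 fold change against WT (y axis, with 95% intervals) of the 9 genes with mCdx2-OE and rCdx2-OE in mESCs and with Cdx2-OE on each allele of RMES cells, with filled points for adjusted p under 0.05 and a fold over 2. Cldn3 and Cldn4 are above the 2-fold line in all 4 comparisons, Cldn7 only in RMES cells, and Atp1b1 and Aqp3 lie above 0 in mESCs and below 0 in RMES cells.

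The wider lists on the RMES alleles are given for the same Cdx2-OE comparison, in which 28.3% of all genes were called higher on each allele, 16.1% lower on the mouse and 14.2% lower on the rat allele. Of 27 further junction genes 5 rose and 4 fell on the mouse allele, and of 26 tested on the rat allele 7 rose and 2 fell. Crb3, which fell in mESCs, rose on both alleles (log2 2.77 and 3.89), and Cgnl1 rose on the rat allele (4.78) and was not called on the mouse allele (0.82). Magi3 (0.86 and 0.54) and Patj (0.96 and 0.87) were called on neither. Of the other claudins 4 of 7 tested rose and 1 fell on each allele. Their summed CPM was 39.3 to 41.3 in the libraries labelled WT and 46.6 to 50.3 with Cdx2-OE on the mouse allele. On the rat allele the sum went the other way, with 176.0 to 178.9 and 62.5 to 64.7 CPM. Other Na,K-ATPase subunit and FXYD genes rose in 6 of 9 cases on the mouse and 8 of 10 on the rat allele, Atp1b2 (4.12 and 3.41) among them, while Atp1b1 fell. The sums of this list went against the number of members. On the mouse allele they were 724.9 to 734.4 CPM in the libraries labelled WT and 637.9 to 670.7 CPM with Cdx2-OE. On the rat allele they were 1073 to 1082 and 758.4 to 827.6 CPM. Desmosome genes rose in 5 of 8 cases on the mouse allele and in 7 of 7 on the rat allele. Transporters rose in 6 of 10 and 6 of 11 cases, and no adherens junction gene rose on either allele.

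Marker levels in RMES cells moved as well. The counts of markers are to be read against all genes, of which 28.3% were called higher on each allele. Called lower were 16.1% on the mouse and 14.2% on the rat allele. The trophoblast markers summed to 275.6 to 294.5 CPM on the mouse allele in the libraries labelled WT and to 1068 to 1240 CPM with Cdx2-OE, and to 467.3 to 485.5 and 1131 to 1271 CPM on the rat allele. The pluripotency markers summed to 6740 CPM and to 2725 to 2738 CPM on the mouse allele, and to 4678 to 4731 and 1623 to 1729 CPM on the rat allele. Of the trophoblast markers 8 of 11 tested rose and 1 fell on the mouse allele and 9 of 12 rose and 1 fell on the rat allele, and of the pluripotency markers 5 of 10 fell and 1 rose and 7 of 9 fell. The summed primitive endoderm markers were at 236.5 to 242.2 CPM in the libraries labelled WT and 52.9 to 55.5 CPM with Cdx2-OE on the mouse allele, and at 437.4 to 451.6 and 305.5 to 347.0 CPM on the rat allele. The number of members went against these sums, since 5 of 8 rose and 1 fell on the mouse allele and 3 rose and 1 fell on the rat allele. Intestinal markers summed to 535.0 to 569.3 and to 79.7 to 88.5 CPM on the mouse allele and to 77.8 to 83.3 and to 19.9 to 23.8 CPM on the rat allele, while 3 of 6 rose and 3 fell on the mouse and 3 rose and 2 fell on the rat allele. Feeder markers summed to 25.9 to 30.5 and to 20.5 to 25.6 CPM on the mouse allele, with Dcn at 0 in all 4 libraries. Their part in the levels of the 9 genes was not tested.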

How the data were processed

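The authors aligned RNA-seq pairs with STAR 2.7.0d to mm10, or to mm10 and rn6 for RMES cells with reads assigned by edit distance, and counted them by strand on Ensembl genes without pseudogenes with featureCounts. The deposited values are raw read counts per gene and library. The replicates of mESCs were counted in separate runs, the second without incomplete and chimeric pairs, and 19919 genes are in both tables. The deposited ATAC-seq and ChIP-seq values are counts of reads in MACS2 peaks called on merged libraries, so no peak was called per library. The authors aligned those reads with Bowtie2 2.3.4.3. ChIP peaks on the rat genome were not analysed here.

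Tests were run in edgeR 4.0.16 (quasi-likelihood, TMM, filterByExpr) with limma 3.58.1 in R 4.3.3, with DESeq2 1.42.0 as the alternative. Adjusted p-values are Benjamini-Hochberg values over all genes tested. Comparisons with WT also needed a fold over 2. Standard errors come from each F statistic and its log2 fold change. All 20 mESC libraries entered 1 model. Reads in peaks were brought to the libraries' mean total (depth 6109353 to 8277850 for ATAC-seq, 5550846 to 6223794 for ChIP-seq in mESCs, 3387074 to 4357448 in RMES cells), with 1 added before logarithms. Start sites and promoters are from RefSeq, and gene positions from GENCODE vM21. Scripts used Python 3.11.15 and were tested on simulated data. Replicate libraries varied with 2.93 to 9.05 times the sampling variance in mESCs and 2.18 to 6.31 times in RMES cells.

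The 9 genes, the wider lists and the marker lists were chosen with earlier results of these data known. Genes named from a list are up to 2 of its largest rises and 2 of its largest falls called in mCdx2-OE against WT mESCs, with a mean of at least 50 counts and the same direction in both replicates, and for each of the 9 genes those most like it over the 20 mESC libraries. A gene that this rule names is not reported here. Alternatives were RLE size factors, DESeq2, no filter on low counts, no fold threshold, fits of only the groups compared, a replicate block (also within WT, intact Cdx2 and mutants, added after the data were seen), leaving out each library, and for peaks other scalings, windows and read minima.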

Additional observations from a re-analysis of the deposited data

Results flagged for a closer look

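The response to Cdx2-OE differed between the alleles of RMES cells for 6 of the 9 genes, by edgeR's test of the interaction with adjusted p under 0.05. The mouse minus rat log2 differences were 3.14 for Ocln, 2.29 for Cldn7, 0.67 for Cldn6, 0.38 for Aqp3, 0.31 for Tjp1 and -0.74 for Cldn4. The same test called 63.0% of all genes.

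Aqp3 and Atp1b1 on both alleles, and Ocln on the rat allele, were lower than WT in every RMES library with Cdx2-OE and higher than WT in every mESC library with intact Cdx2, a difference that was not tested. Aqp3 had log2 fold changes of -0.96 on the mouse and -1.33 on the rat allele, and 1.09 in mCdx2-OE mESCs. Atp1b1 had -1.01 and -1.11, and 0.53 in mCdx2-OE mESCs. Ocln had -0.88 on the rat allele, and 0.96 in mCdx2-OE mESCs.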

How the results depend on the processing

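Of 1573 alternative values for single genes, 1531 kept their direction and side of the threshold, 20 lost a call, 12 gained one and 10 changed sign. The sign changes were in values without a call. Without 1 library, Cldn4 between mCdx2-OE and rCdx2-OE ranged from -0.18 to 0.0666 and Tjp1 from -0.12 to 0.10, and Cldn7 against WT ranged from -0.72 to 0.11 in R1, from -0.18 to 0.11 in R2, from -0.49 to 0.0180 in R3 and from -0.39 to 0.42 in R23. Cldn7 in R2 was 0.0235 when only those libraries and WT were fitted. Without a fold threshold the numbers of the 9 genes called were 8 in mCdx2-OE, 7 in R1, R2 and R12, and 8 in R3. With 1 library left out the numbers ranged from 3 to 5 in mCdx2-OE, 5 to 6 in rCdx2-OE and R13, 4 to 5 in R3, 5 to 7 in R23 and R123, 7 to 8 for mutants against intact Cdx2, 6 to 8 for the mouse allele, 6 to 7 for the rat allele, and 6 to 9 for the interaction. Where 1 library of a group remained, it was assumed to vary like the other groups. Without the filter on low counts they were 3 in mCdx2-OE and 5 in R23 and R123. ATAC peaks past 2-fold numbered 20 opened and 7 closed without scaling, 3 and 5 (8 in all) at 100 reads, and 5 and 5 (10 in all) within 5 kb. ChIP peaks in mESCs numbered 44 within 50 kb and 14 of at least the median reads, and 8 of these in RMES cells. The causes of these changes were not tested. Deviations of same-numbered mESC samples correlated with r from 0.195 to 0.337 in the 21 pairs of mutants and 0.57 between mCdx2-OE and rCdx2-OE, but from -0.162 to -0.0174 in the 23 pairs between WT, intact Cdx2 and mutants, so a number was shared within a class and not across classes. Cdx2 was higher in replicate 1 of all 7 mutants and of 1 of the 2 intact proteins. With the replicate number as a block the count of the 9 genes called was 4 in mCdx2-OE, 6 in rCdx2-OE and 0 between the proteins, as without it, and over all genes between the proteins it was 1 in place of 3. With a block within each class, added after the data were seen, 1 of the 9 differed between the proteins and 5 in place of 2 among the mutants. The counts of the 9 against WT, for mutants against intact Cdx2 and for the 3 changes were as without it. In RMES cells the WT and Cdx2-OE libraries could not be paired by replicate number, because the groups share too few numbers. The alleles were compared within each library.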
